A study of Arabidopsis thaliana with 9 samples.

Results

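The aliphatic and indole glucosinolate synthesis genes of Arabidopsis thaliana were followed in whole 2-week-old seedlings of 3 genotypes. The set of 37 genes is given by locus identifiers of known pathway genes and by no threshold on measured values, though the pathway was picked with earlier results of these data known, and all 37 were among the 32823 genes of the expression files. It held 25 genes of the aliphatic branch, 8 of the indole branch and 4 that serve both branches. The seedlings were the cyp71-3 mutant, the se-1 mutant and the wild type Col-0, with 3 mRNA-seq libraries of each genotype. They were grown in long days without any treatment. The labels do not say whether the libraries of a genotype came from separately grown plants, so the tests use only the spread between libraries, which may be technical. cyp71-3 is an allele of CYP71, which encodes a nuclear cyclophilin with WD40 repeats, and se-1 is an allele of SERRATE (SE), a zinc-finger protein of microRNA precursor processing. The design text asks how CYP71 mutations affect microRNAs and their targets, and it lists another allele, cyp71-2, and small RNA-seq, neither of which is analysed here.

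Glucosinolates are sulfur-containing defence compounds of the cabbage order, stored apart from the myrosinases that release toxic products from them when tissue is damaged. Aliphatic glucosinolates start from methionine, whose side chain is lengthened in rounds of chain elongation, and indole glucosinolates start from tryptophan. In both branches a CYP79 enzyme makes an oxime, a CYP83 enzyme activates it, sulfur is added from glutathione, and glucose and sulfate complete the core, after which the side chain is oxidised or decorated. R2R3-MYB transcription factors of 1 small subgroup switch on the branches, MYB28, MYB29 and MYB76 the aliphatic one and MYB34, MYB51 and MYB122 the indole one.

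The deposited unit is FPKM, a fragment count scaled by transcript length and by the library total. The FPKM values of a library summed to 825338 to 937136, and read counts were not used here, so the depth behind each value is unknown. Pearson's r of log2(FPKM + 1) was at least 0.9924 within a genotype and 0.9731 to 0.9846 between genotypes. CYP71 stood at 3.70, 4.41 and 4.16 FPKM in the cyp71-3 libraries, against 16.89, 17.57 and 19.10 FPKM in the Col-0 libraries. SE stood at 28.97, 27.18 and 25.51 FPKM in the se-1 libraries, against 30.72, 33.25 and 31.08 FPKM in the Col-0 libraries, and the libraries did not overlap. Transcripts of the chloroplast genome made up 0.0313% to 3.44% of the FPKM sum, with 1 to 2 libraries of each genotype above 1%. The 8 green tissue markers summed to 32733 to 33448 FPKM in cyp71-3, 33238 to 36965 FPKM in se-1 and 38724 to 39774 FPKM in Col-0. The 8 root markers summed to 83.6 to 86.2 FPKM in cyp71-3, 112.0 to 121.0 FPKM in se-1 and 44.6 to 50.9 FPKM in Col-0. No marker was at 0 in any library.

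The synthesis genes were among the more abundant transcripts of the seedlings. The median of their mean levels in Col-0 was 49.2 FPKM, against 12.1 FPKM for all 19180 genes that were tested, and the median tested member lay at percentile 85.4 of those genes. GSTU20 (AT1G78370), a glutathione transferase assigned to the aliphatic core, had the highest level in every genotype, 357 ± 3.86 FPKM in cyp71-3, 224 ± 9.42 FPKM in se-1 and 180 ± 1.64 FPKM in Col-0 (SD, n = 3 each). In Col-0 it was followed by IIL1 (AT4G13430), the large subunit of the chain elongation isomerase, at 155 ± 0.72 FPKM and by GGP1 (AT4G30530), a peptidase that trims the glutathione conjugates, at 140 ± 3.29 FPKM (SD, n = 3). Further down the order, neighbours often lay closer to each other than their spread: MAM1 at 104 ± 1.78 FPKM and CYP83B1 at 103 ± 1.54 FPKM did so in Col-0 (SD, n = 3). In Col-0 8 members exceeded 100 FPKM, and 4 members stayed under 5 FPKM, namely MYB51, CYP81F2, MYB76 and MYB122.

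**Figure D1:**
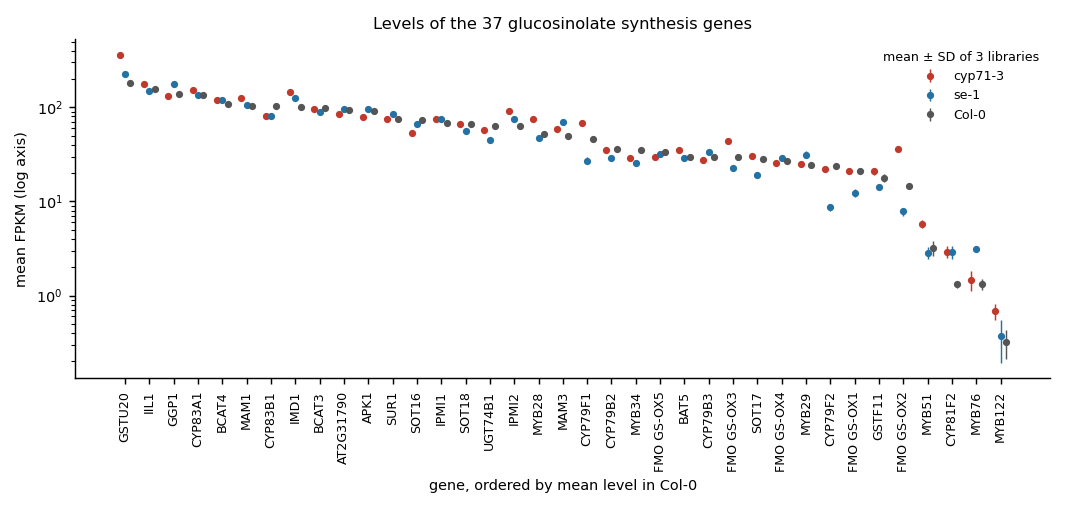
Mean FPKM (log axis) of the 37 synthesis genes in cyp71-3, se-1 and Col-0, ordered by the Col-0 level from left to right; points are means and bars are SD of 3 libraries. GSTU20 stands highest in all 3 genotypes and MYB122 lowest, and FMO GS-OX2 shows a wide gap between genotypes for its place in the order.

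Of the 37 genes 36 had a mean of at least 1 FPKM over the 9 libraries and were tested with limma on log2(FPKM + 1), and MYB122 fell under that filter. A gene was called when its two-sided Benjamini-Hochberg adjusted p over all 19180 tested genes was under 0.05. Differences below are on the log2(FPKM + 1) scale with their standard error, which understates changes of genes near 1 FPKM. Both mutants were set against the same Col-0 libraries, so their 2 comparisons are not independent. In whole seedlings, fewer cells of a type and less RNA per cell cannot be told apart.

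In cyp71-3 against Col-0, 17 synthesis genes rose and 7 fell among the 36 tested (66.7%), against 63.3% of all tested genes called in either direction (30.6% higher and 32.7% lower), so the share called was near that of the whole transcriptome. The direction was uneven. Of the 25 aliphatic genes 15 rose and 2 fell, of the 7 tested indole genes 2 rose and 3 fell, and of the 4 shared genes none rose and 2 fell. Of the 36 tested members 9 were called with a difference of at least 0.5, before rounding, and all 9 were higher. Such a difference in either direction was found in 26.1% of all tested genes, near the share of the members. The split of that 26.1% by direction is not given here. The median difference of the members was 0.10, against -0.01 for all tested genes. Under quantile normalization the split was 19 higher and 4 lower in place of 17 and 7.

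In se-1 against Col-0, 11 synthesis genes rose and 15 fell among the 36 tested (72.2%), against 50.2% of all tested genes (25.1% higher and 25.1% lower). Of the 25 aliphatic genes 7 rose and 10 fell, of the 7 tested indole genes 2 rose and 4 fell, and of the 4 shared genes 2 rose and 1 fell. Of the 7 members called with a difference of at least 0.5 before rounding, 5 were lower and 2 higher, and such a difference in either direction was found in 15.8% of all tested genes. The median difference of the members was -0.06, against 0.00 for all tested genes.

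Set directly against each other, the mutants differed in 31 of the 36 tested members (86.1%), against 62.2% of all tested genes (30% higher and 32.2% lower). Of these 21 were higher and 10 lower in cyp71-3 than in se-1. In the aliphatic branch 17 were higher and 5 lower in cyp71-3, and 9 of the 10 called aliphatic members that differed by at least 0.5 were higher in cyp71-3. A called difference of at least 0.5, in either direction, was found in 25.2% of all tested genes. The 3 largest differences were those of FMO GS-OX2, CYP79F1 and CYP79F2, which are described with their families below.

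**Figure D2:**
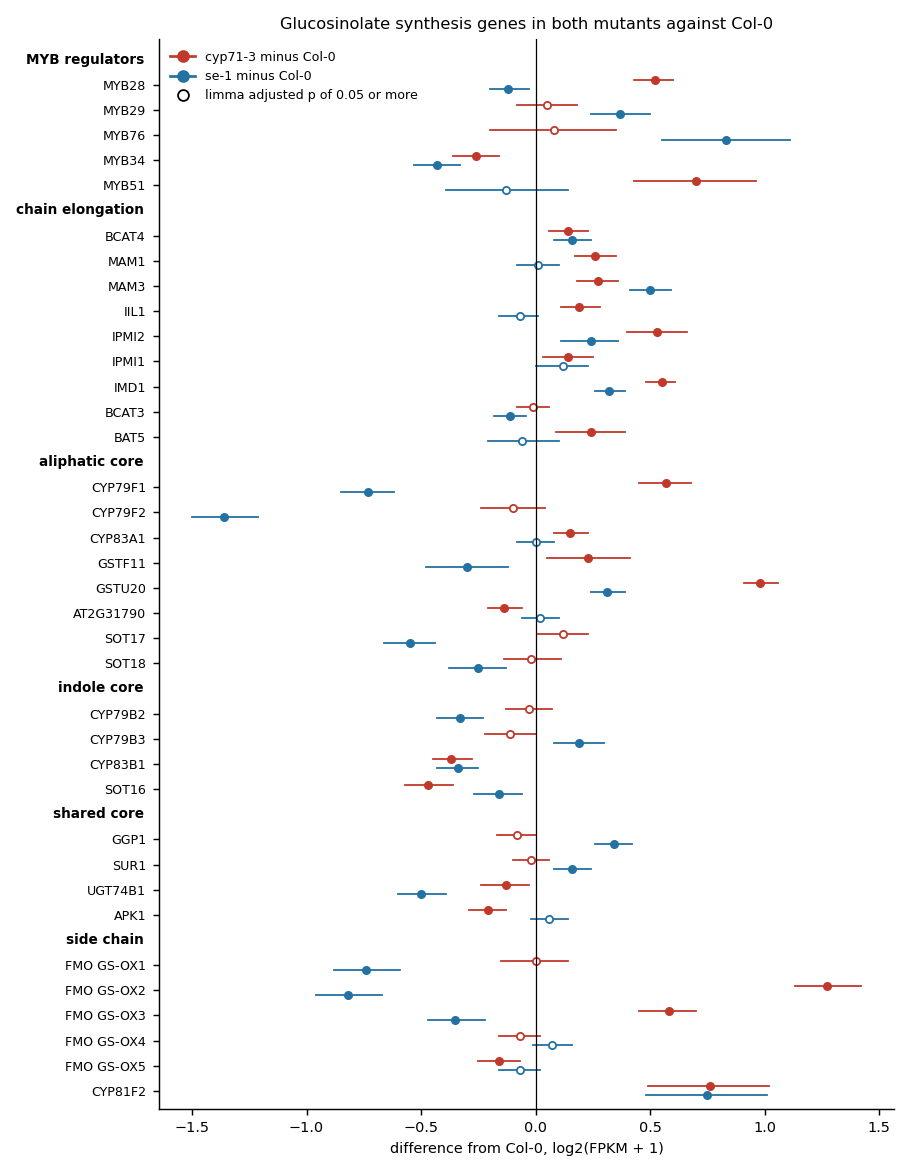
Difference from Col-0 in log2(FPKM + 1) for the 36 tested synthesis genes, grouped by role, with cyp71-3 above se-1 in each row; points are limma estimates, lines their 95% confidence intervals, and open points did not pass the test. Chain elongation genes lie at or right of 0 in cyp71-3, and CYP79F1, FMO GS-OX2 and FMO GS-OX3 lie on opposite sides of 0 in the 2 mutants.

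Among the aliphatic regulators the 3 MYB genes did not move alike. MYB28 (AT5G61420, chr5:24689069-24691187, minus strand), the main regulator of methionine-derived glucosinolates, stood at 73.08, 76.56 and 73.29 FPKM in cyp71-3, 47.65, 46.56 and 48.09 FPKM in se-1, and 50.86, 50.34 and 53.67 FPKM in Col-0. Every cyp71-3 library lay above every other library, and every se-1 library lay just under those of Col-0. MYB28 rose by 0.52 ± 0.04 in cyp71-3 (adjusted p = 4.62e-07, limma) and fell by 0.12 ± 0.04 in se-1 (adjusted p = 0.0237, limma). The fall in se-1 missed the threshold in 3 of 20 alternatives, the fit without the variance trend and those without Col-0 replicate 3 or se-1 replicate 2. In the fits without these libraries the differences were -0.09 and -0.11. Adjusted p-values lay between 0.00732 and 0.103 over all alternatives (limma).

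MYB29 (AT5G07690), a partly redundant partner of MYB28 that also answers to jasmonate, stood at 25.20, 25.77 and 23.93 FPKM in cyp71-3, 30.05, 34.41 and 29.91 FPKM in se-1, and 25.13, 23.12 and 24.05 FPKM in Col-0. The se-1 libraries were above all others, and cyp71-3 and Col-0 overlapped. MYB29 rose by 0.37 ± 0.06 in se-1 (adjusted p = 0.00038, limma), and its difference of 0.05 in cyp71-3 did not pass (95% interval -0.08 to 0.18). MYB76 (AT5G07700), the third aliphatic regulator, lies 1442 bp from MYB29 on chromosome 5 with no coding gene between them. It was scarce, at 1.49, 1.10 and 1.81 FPKM in cyp71-3, 2.92, 3.37 and 3.09 FPKM in se-1, and 1.52, 1.22 and 1.23 FPKM in Col-0. It rose by 0.83 ± 0.13 in se-1 (adjusted p = 0.000217, limma), a 2.36-fold higher mean FPKM, and its difference of 0.08 in cyp71-3 did not pass.

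The ratio of MYB28 to MYB29 was 2.90 to 3.06 in cyp71-3, 1.35 to 1.61 in se-1 and 2.02 to 2.23 in Col-0, with no overlap between genotypes. With 3 libraries a genotype an exact permutation test of a ratio cannot give a p below 0.1.

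The indole regulators differed among themselves as well. MYB34 (AT5G60890), which also controls tryptophan synthesis genes, stood at 28.61, 28.79 and 30.26 FPKM in cyp71-3, 25.34, 26.55 and 25.78 FPKM in se-1, and 36.30, 33.50 and 35.97 FPKM in Col-0. All libraries of both mutants lay under those of Col-0. It fell by 0.26 ± 0.05 in cyp71-3 (adjusted p = 0.000416, limma) and by 0.43 ± 0.05 in se-1 (adjusted p = 1.49e-05, limma). MYB51 (AT1G18570), the regulator tied to indole glucosinolates in defence, stood at 6.04, 6.22 and 5.15 FPKM in cyp71-3, 2.54, 3.35 and 2.68 FPKM in se-1, and 2.81, 3.87 and 2.97 FPKM in Col-0. It rose by 0.70 ± 0.12 in cyp71-3 (adjusted p = 0.000368, limma), and its difference of -0.13 in se-1 did not pass (95% interval -0.39 to 0.14). MYB122 (AT1G74080) was under 1 FPKM in every library, at 0.72, 0.79 and 0.53 FPKM in cyp71-3, 0.21, 0.57 and 0.34 FPKM in se-1, and 0.24, 0.27 and 0.45 FPKM in Col-0, and was not tested. The ratio of MYB34 to MYB51 was 4.63 to 5.88 in cyp71-3, 7.93 to 9.98 in se-1 and 8.66 to 12.9 in Col-0, so that cyp71-3 lay apart and se-1 overlapped Col-0.

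Of the 9 chain elongation genes 8 rose and none fell in cyp71-3, where 30.6% of all tested genes were called higher and 63.3% in either direction. Their median difference was 0.24, and the remaining BCAT3 differed by -0.01. In se-1, where 25.1% of all tested genes were called higher and 25.1% lower, 4 rose and 1 fell, with a median of 0.12. Summed over the 9 genes, the level was 917 to 947 FPKM in cyp71-3, 823 to 850 FPKM in se-1 and 767 to 790 FPKM in Col-0.

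IMD1 (AT5G14200), the dehydrogenase that closes each elongation round, stood at 146.61, 146.34 and 148.72 FPKM in cyp71-3, 123.56, 125.44 and 128.35 FPKM in se-1, and 100.07, 101.66 and 99.27 FPKM in Col-0. The 3 genotypes did not overlap. It rose by 0.55 ± 0.03 in cyp71-3 (adjusted p = 3.91e-08, limma) and by 0.32 ± 0.03 in se-1 (adjusted p = 5.13e-06, limma). IMD1 overlaps a protein-coding gene on the other strand, and without stated strandedness their fragments cannot be told apart. IPMI2 (AT2G43100), a small subunit of the isomerase, stood at 93.28, 92.36 and 89.06 FPKM in cyp71-3, 68.82, 77.73 and 77.16 FPKM in se-1, and 68.39, 59.72 and 61.46 FPKM in Col-0. It rose by 0.53 ± 0.06 in cyp71-3 (adjusted p = 1.14e-05, limma) and by 0.24 ± 0.06 in se-1 (adjusted p = 0.00584, limma).

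The condensing enzymes of the cycle are encoded by neighbours on chromosome 5, 11144 bp apart. MAM3 (AT5G23020), which accepts short and long chains, averaged 59.5 ± 1.82 FPKM in cyp71-3, 69.9 ± 1.93 FPKM in se-1 and 49.2 ± 1.78 FPKM in Col-0 (SD, n = 3 each) and rose in both mutants, by 0.27 in cyp71-3 and just under 0.50 in se-1. MAM1 (AT5G23010), which makes short chains, averaged 125 ± 1.33 FPKM in cyp71-3, 105 ± 5.94 FPKM in se-1 and 104 ± 1.78 FPKM in Col-0 (SD, n = 3 each). It rose by 0.26 in cyp71-3, and its difference of 0.01 in se-1 did not pass. The ratio of MAM1 to MAM3 was accordingly 2.05 to 2.14 in cyp71-3, 1.43 to 1.65 in se-1 and 2.05 to 2.15 in Col-0, so that se-1 alone stood apart.

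The other elongation genes differed less from Col-0. BCAT4 (AT3G19710), the aminotransferase of the entry step, rose by 0.14 in cyp71-3 and by 0.16 in se-1. Under quantile normalization the differences in cyp71-3 were larger, at 0.29 for BCAT4, 0.33 for IIL1, 0.24 for IPMI1 and 0.40 for MAM1. IIL1 rose by 0.19 and the plastid transporter BAT5 (AT4G12030) by 0.24 in cyp71-3, while their se-1 differences of -0.07 and -0.06 did not pass. That of IIL1 passed in 3 of 20 alternatives, among them the fit without se-1 replicate 1 (-0.11), with adjusted p-values of 0.011 to 0.341 over all alternatives (limma). BCAT3 (AT3G49680), the aminotransferase that ends elongation, fell by 0.11 in se-1. The rise of IPMI1 (AT3G58990), the other small subunit, was 0.14 in cyp71-3 with an adjusted p of 0.0268 (limma), and it missed the threshold in 6 of 20 alternatives, among them the fits without Col-0 replicate 1 or 3 and without cyp71-3 replicate 1 or 2, where it was 0.12 to 0.15. Over all alternatives that adjusted p ran from 0.000792 to 0.102. In se-1 the IPMI1 difference of 0.12 did not pass. It passed in 3 of 20 alternatives, among them the fit without se-1 replicate 1 (0.15), with adjusted p-values of 0.0293 to 0.26 over all alternatives (limma).

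Of the 8 genes of the aliphatic core 4 rose and 1 fell in cyp71-3 against Col-0, with a median difference of 0.14, and 1 rose and 5 fell in se-1 against Col-0, with a median of -0.27. Between the mutants all 8 differed, 7 of them higher in cyp71-3, with a median of 0.60. The other, AT2G31790, was lower by a call that was lost under quantile normalization, where its difference was -0.07. Among all tested genes, 63.3% were called in cyp71-3 against Col-0, 50.2% in se-1 against Col-0 and 62.2% between the mutants.

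The first enzymes of the core are a tandem pair on chromosome 1 with 1183 bp between the genes. CYP79F1 (AT1G16410, chr1:5608682-5612064, plus strand), which converts short and long elongated methionines to oximes, stood at 69.00, 67.56 and 68.82 FPKM in cyp71-3, 28.06, 28.91 and 24.74 FPKM in se-1, and 46.40, 45.48 and 45.54 FPKM in Col-0. The 3 genotypes did not overlap, with Col-0 between the mutants. CYP79F1 rose by 0.57 ± 0.05 in cyp71-3 (adjusted p = 2.57e-06, limma), fell by 0.73 ± 0.05 in se-1 (adjusted p = 6.47e-07, limma) and was 1.30 ± 0.05 higher in cyp71-3 than in se-1 (adjusted p = 3.38e-09, limma). CYP79F2 (AT1G16400, chr1:5605044-5607498, plus strand), which takes long-chain substrates, stood at 21.57, 23.49 and 21.66 FPKM in cyp71-3, 9.54, 8.33 and 8.29 FPKM in se-1, and 23.45, 22.93 and 25.26 FPKM in Col-0. Only the se-1 libraries stood apart. It fell by 1.36 ± 0.06 in se-1 (adjusted p = 2.97e-08, limma), to a mean 2.74-fold lower than in Col-0, and its difference of -0.10 in cyp71-3 did not pass (95% interval -0.24 to 0.04).

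The ratio of CYP79F1 to CYP79F2 was 2.88 to 3.20 in cyp71-3, 2.94 to 3.47 in se-1 and 1.80 to 1.98 in Col-0. Both mutants thus had a higher ratio than Col-0 and overlapped each other, and the level of both genes was lower in se-1. How fragments were divided between the copies bears on these values: the coding sequences are 91.9% identical over 1605 aligned bases. Their longest identical stretch is 100 bases, coding positions 994 to 1093 of CYP79F1 and 991 to 1090 of CYP79F2, and is shown because fragments that lie inside it cannot be assigned to either gene; it was read from the TAIR10.1 genome in RefSeq, and no letters are in capitals.
CYP79F1 and CYP79F2: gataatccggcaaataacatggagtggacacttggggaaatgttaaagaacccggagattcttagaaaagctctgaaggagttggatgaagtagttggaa

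CYP83A1 (AT4G13770), the next enzyme, which oxidises the aliphatic oximes, stood at 151.48, 153.81 and 149.35 FPKM in cyp71-3, 130.06, 140.42 and 137.99 FPKM in se-1, and 137.88, 135.05 and 135.16 FPKM in Col-0. It rose by 0.15 ± 0.03 in cyp71-3 (adjusted p = 0.00241, limma), or by 0.30 under quantile normalization, and se-1 overlapped Col-0 with a difference of 0.00 (95% interval -0.08 to 0.08). GSTU20 stood at 360.22, 357.27 and 352.57 FPKM in cyp71-3, 216.07, 221.67 and 234.44 FPKM in se-1, and 178.36, 180.69 and 181.52 FPKM in Col-0. It rose by 0.98 ± 0.03 in cyp71-3 (adjusted p = 1.08e-09, limma), a 1.98-fold higher mean FPKM, and by 0.31 ± 0.03 in se-1 (adjusted p = 1.72e-05, limma). GSTU20 was the 1 gene of the aliphatic core that rose in se-1.

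GSTF11 (AT3G03190), the other glutathione transferase of the aliphatic core, stood at 23.06, 20.12 and 19.72 FPKM in cyp71-3, 13.10, 15.28 and 14.26 FPKM in se-1, and 16.98, 16.46 and 19.66 FPKM in Col-0. It was 0.53 ± 0.08 higher in cyp71-3 than in se-1 (adjusted p = 0.00018, limma) and fell by 0.30 in se-1 against Col-0. Its rise of 0.23 in cyp71-3 (adjusted p = 0.0277, limma) did not hold without Col-0 replicate 1, Col-0 replicate 2 or cyp71-3 replicate 1, where it was 0.21, 0.19 and 0.17, nor without the library of each genotype richest in chloroplast transcripts, where it was 0.12. Over all alternatives that adjusted p ran from 0.00872 to 0.241. GSTF11 also overlaps a coding gene on the other strand.

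The sulfotransferases SOT17 (AT1G18590) and SOT18 (AT1G74090) finish the aliphatic core. SOT17 stood at 31.04, 29.57 and 31.34 FPKM in cyp71-3, 17.80, 19.44 and 19.34 FPKM in se-1, and 28.80, 26.80 and 28.65 FPKM in Col-0. It fell by 0.55 ± 0.05 in se-1 (adjusted p = 4.72e-06, limma). In cyp71-3 its 3 libraries lay above those of Col-0, but the difference of 0.12 narrowly missed the threshold (adjusted p = 0.0542, limma), and in 6 of 20 alternatives it passed, among them the fits without cyp71-3 replicate 2 (0.15) and without se-1 replicate 1 (0.12), with adjusted p-values of 0.00559 to 0.243 over all alternatives. SOT18 fell by 0.25 in se-1, and its difference of -0.02 in cyp71-3 did not pass. AT2G31790, annotated as a glycosyltransferase and listed with the core, fell by 0.14 in cyp71-3, and under quantile normalization its difference of -0.03 was not called.

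**Figure D3:**
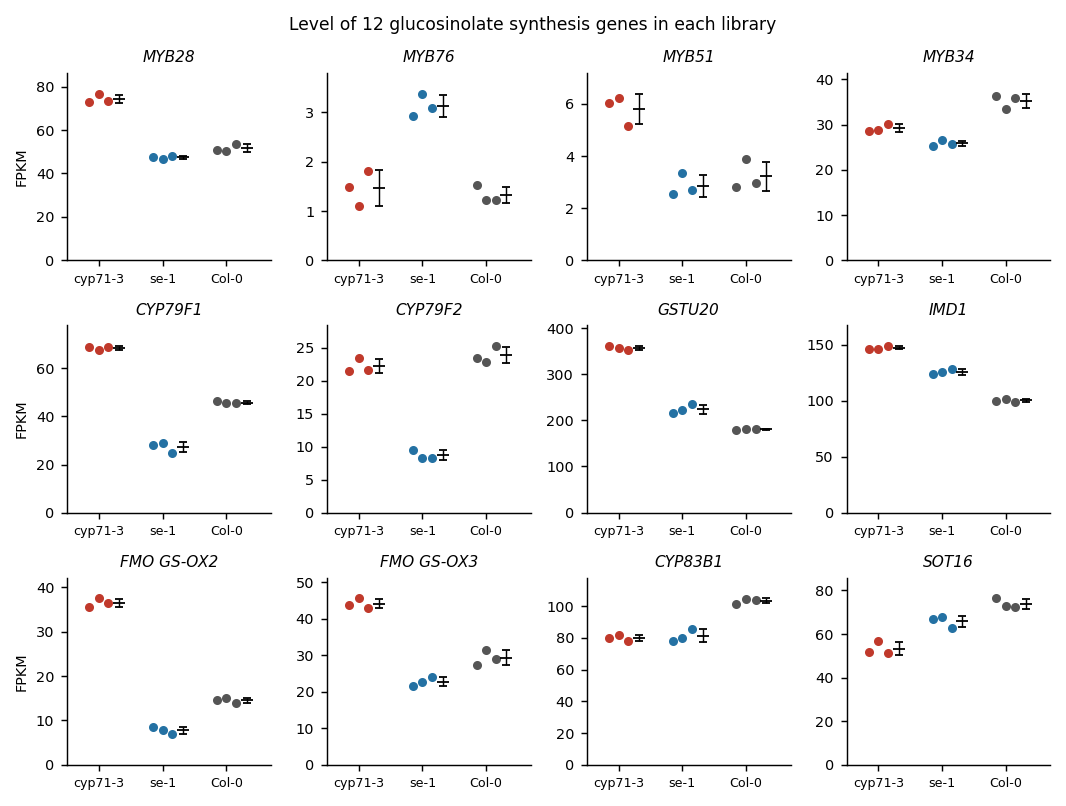
FPKM in each library of 12 synthesis genes, with cyp71-3, se-1 and Col-0 from left to right in each panel; points are libraries, and the black mark beside them is the mean with its SD (n = 3). CYP79F1, FMO GS-OX2 and FMO GS-OX3 have Col-0 between the mutants, GSTU20 and IMD1 are higher in both mutants, and CYP83B1 and SOT16 are lower in both.

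The FMO GS-OX genes encode flavin-containing monooxygenases that oxidise the methylthio group of aliphatic side chains, and FMO GS-OX2 had the largest difference between the mutants of the 36 tested synthesis genes. In cyp71-3 2 of the 5 rose and 1 fell against Col-0, in se-1 none rose and 3 fell, and between the mutants 3 were higher and 1 lower in cyp71-3. The shares called among all tested genes were, in the same order, 63.3%, 50.2% and 62.2%. FMO GS-OX2 (AT1G62540, chr1:23151634-23155728, plus strand) stood at 35.64, 37.50 and 36.46 FPKM in cyp71-3, 8.60, 7.87 and 7.03 FPKM in se-1, and 14.70, 14.96 and 13.91 FPKM in Col-0. The genotypes lay far apart with Col-0 between the mutants. It rose by 1.27 ± 0.07 in cyp71-3 (adjusted p = 2.41e-08, limma), fell by 0.82 ± 0.07 in se-1 (adjusted p = 1.61e-06, limma) and was 2.09 ± 0.07 higher in cyp71-3 than in se-1 (adjusted p = 5.11e-10, limma), a 4.66-fold gap in mean FPKM.

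FMO GS-OX3 (AT1G62560), 4005 bp from FMO GS-OX2, stood at 43.84, 45.53 and 43.04 FPKM in cyp71-3, 21.61, 22.71 and 23.93 FPKM in se-1, and 27.31, 31.42 and 29.04 FPKM in Col-0. It rose by 0.58 ± 0.06 in cyp71-3 (adjusted p = 4.45e-06, limma) and fell by 0.35 ± 0.06 in se-1 (adjusted p = 0.000384, limma). FMO GS-OX4 (AT1G62570), the next gene in this cluster at a distance of 5885 bp, averaged 25.8 ± 0.27 FPKM in cyp71-3, 28.7 ± 0.34 FPKM in se-1 and 27.2 ± 0.77 FPKM in Col-0 (SD, n = 3 each), and neither difference from Col-0 passed. It was the 1 of the family called lower in cyp71-3 than in se-1, by 0.15. That call was lost in 2 of 20 alternatives, among them quantile normalization, at -0.09. FMO GS-OX5 differed in the same direction, by -0.09, and did not pass. The ratio of FMO GS-OX2 to FMO GS-OX4 was 1.40 to 1.45 in cyp71-3, 0.247 to 0.296 in se-1 and 0.528 to 0.548 in Col-0. The genotypes did not overlap in it.

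FMO GS-OX1 (AT1G65860) stood at 20.93, 21.27 and 20.82 FPKM in cyp71-3, 13.60, 11.11 and 12.09 FPKM in se-1, and 21.16, 20.12 and 21.91 FPKM in Col-0. It fell by 0.74 ± 0.07 in se-1 (adjusted p = 3.95e-06, limma), and cyp71-3 overlapped Col-0. FMO GS-OX5 (AT1G12140), whose enzyme prefers long chains, fell by 0.16 in cyp71-3, a call lost under quantile normalization, where the difference was -0.08, and its difference of -0.07 in se-1 did not pass. The coding sequences of the 5 genes are 73.1% to 85.4% identical in pairs, with identical stretches of at most 53 bases.

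In the indole core no gene rose in cyp71-3 and 2 of 4 fell, and in se-1 1 rose and 3 fell. Over all tested genes 63.3% were called in cyp71-3 and 50.2% in se-1. CYP83B1 (AT4G31500), which oxidises the indole oxime and limits its flow into auxin, stood at 79.79, 81.68 and 78.24 FPKM in cyp71-3, 77.86, 80.18 and 85.83 FPKM in se-1, and 101.48, 104.19 and 104.12 FPKM in Col-0. It fell by 0.37 ± 0.04 in cyp71-3 (adjusted p = 1.12e-05, limma) and by 0.34 ± 0.04 in se-1 (adjusted p = 3.22e-05, limma), and the mutants overlapped with a difference of -0.02 between them (95% interval -0.11 to 0.07). SOT16 (AT1G74100), the sulfotransferase that prefers indole substrates, averaged 53.2 ± 2.95 FPKM in cyp71-3, 65.8 ± 2.52 FPKM in se-1 and 73.9 ± 2.17 FPKM in Col-0 (SD, n = 3 each). It fell by 0.47 in cyp71-3 and by 0.16 in se-1. The fall in se-1 was 0.14 and missed the threshold without Col-0 replicate 1, with adjusted p-values of 0.00649 to 0.0556 over all alternatives.

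The tryptophan-oxidising pair moved apart in se-1. CYP79B2 (AT4G39950) stood at 34.34, 37.19 and 35.35 FPKM in cyp71-3, 27.94, 29.42 and 28.76 FPKM in se-1, and 36.82, 34.68 and 37.52 FPKM in Col-0. CYP79B3 (AT2G22330) stood at 26.91, 26.49 and 28.41 FPKM in cyp71-3, 32.96, 33.62 and 34.82 FPKM in se-1, and 30.11, 30.85 and 27.56 FPKM in Col-0. In both genes the cyp71-3 and Col-0 libraries overlapped and the se-1 libraries lay apart, below in CYP79B2 and above in CYP79B3. In se-1 CYP79B2 fell by 0.33 ± 0.05 (adjusted p = 0.000133, limma) and CYP79B3 rose by 0.19 ± 0.05 (adjusted p = 0.00908, limma). Their ratio was 1.24 to 1.40 in cyp71-3, 0.826 to 0.875 in se-1 and 1.12 to 1.36 in Col-0. In cyp71-3 neither passed, with differences of -0.03 for CYP79B2 and -0.11 for CYP79B3; CYP79B3 was called, at -0.16, without Col-0 replicate 3, and its adjusted p ran from 0.0233 to 0.487 over all alternatives.

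CYP81F2 (AT5G57220), which hydroxylates the indole ring at the first step to the 4-methoxy form used in defence, was a scarce transcript that rose in both mutants. It stood at 2.80, 3.42 and 2.58 FPKM in cyp71-3, 3.27, 2.40 and 3.06 FPKM in se-1, and 1.44, 1.21 and 1.31 FPKM in Col-0. The rise was 0.76 ± 0.12 in cyp71-3 (adjusted p = 0.0002, limma) and 0.75 ± 0.12 in se-1 (adjusted p = 0.000339, limma), 2.22-fold and 2.20-fold of the mean FPKM.

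Of the shared genes 2 fell and none rose in cyp71-3, and 2 rose and 1 fell in se-1. The shares called over all tested genes were 63.3% in cyp71-3 and 50.2% in se-1. GGP1 rose by 0.34 in se-1, and its difference of -0.08 in cyp71-3 missed the threshold (adjusted p = 0.0738, limma). It passed in 3 of 20 alternatives, among them the fit without se-1 replicate 3 (-0.08), and its adjusted p ran from 0.0232 to 0.212. SUR1 (AT2G20610), the lyase that releases the thiol, rose by 0.16 in se-1. UGT74B1 (AT1G24100), the glucosyltransferase, averaged 57.8 ± 2.89 FPKM in cyp71-3, 44.7 ± 2.21 FPKM in se-1 and 63.5 ± 1.24 FPKM in Col-0 (SD, n = 3 each) and fell by just under 0.50 in se-1. Its fall of 0.13 in cyp71-3 (adjusted p = 0.0295, limma) missed the threshold in 6 of 20 alternatives, among them the fits without Col-0 replicate 2 or 3 and without cyp71-3 replicate 1, where the difference was -0.13, -0.12 and -0.09, and quantile normalization, where it was -0.04, with adjusted p-values of 0.016 to 0.49 over all alternatives. APK1 (AT2G14750), a kinase that makes the sulfate donor, fell by 0.21 in cyp71-3, or by 0.11 under quantile normalization.

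As sums, the aliphatic genes took 1969 to 2016 FPKM in cyp71-3, 1572 to 1624 FPKM in se-1 and 1554 to 1584 FPKM in Col-0. The indole genes took 231 to 241 FPKM in cyp71-3, 237 to 244 FPKM in se-1 and 281 to 286 FPKM in Col-0. The ratio of the sums was 8.36 to 8.57 in cyp71-3, 6.61 to 6.65 in se-1 and 5.52 to 5.58 in Col-0, and the genotypes did not overlap. As a share of each library's FPKM sum, the aliphatic genes held 0.224% to 0.244% in cyp71-3, 0.186% to 0.195% in se-1 and 0.169% to 0.179% in Col-0. The se-1 and Col-0 ranges thus overlapped as sums and lay apart as shares, with cyp71-3 highest by both. These sums are governed by the most abundant members, GSTU20 first. The aliphatic sums averaged 1988 FPKM in cyp71-3, 1603 FPKM in se-1 and 1571 FPKM in Col-0. In the same order, GSTU20 alone averaged 357 FPKM, 224 FPKM and 180 FPKM.

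Levels of tissue and cell type markers differed between the genotypes as well. Among all tested genes 63.3% were called in cyp71-3 (30.6% higher and 32.7% lower) and 50.2% in se-1 (25.1% higher and 25.1% lower). Of the 8 root markers 5 were higher and 2 lower in cyp71-3, and 6 were higher and none lower in se-1. Of the 8 green tissue markers 6 were lower in cyp71-3 and 7 in se-1, with none higher in either. The 4 guard cell markers were lower in both mutants and summed to 34.2 to 36.4 FPKM in cyp71-3, 40.7 to 42.9 FPKM in se-1 and 52.0 to 59.3 FPKM in Col-0. The part of these shifts in the differences of the synthesis genes was not tested.

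Upstream sequences were searched for 3 short motifs, on both strands, in the 300 bases before each annotated gene start of the RefSeq TAIR10.1 genome. The AC element ACCNACC, a type of sequence bound by R2R3-MYB proteins, was present in 10 of 37 synthesis genes (27.0%) and in 7.1% of the windows of 27437 protein-coding genes. It was present in 8 of the 25 aliphatic genes, 1 of the 8 indole genes and 1 of the 4 shared genes. The G-box CACGTG, bound by MYC-type factors among others, was present in 3 members (8.1%), IIL1, CYP83A1 and SUR1, and in 7.1% of all windows. GAGAC, the core of a sulfur-responsive element, was present in 11 members (29.7%) and in 30.0% of all windows. In the members no match overlapped that of another motif. A match describes letters and not a site in use, and no match says only that these letters are not in that window.

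AC elements of 9 members are shown with their surroundings because R2R3-MYB proteins, the class of the branch regulators, bind such motifs. Each is 30 bases, 5′ to 3′ on the strand of the gene, with the match in capitals; matches that read GGTTGGT or GGTAGGT lie on the opposite strand. The windows of IPMI2, CYP79F2 and SOT17 overlap a neighbouring gene.
IIL1 (chr4:7807981-7808010, minus strand): cgtttaatgacACCAACCtaatgacaattt
IPMI2 (chr2:17920540-17920569, plus strand): gtttcactgtgACCTACCtaagtatatcaa
IPMI1 (chr3:21798419-21798448, minus strand): agtacacaacgACCAACCttcgtgtctcaa
BAT5 (chr4:7210776-7210805, plus strand): ttgagacgataGGTTGGTgacttggtgtgt
CYP79F2 (chr1:5604929-5604958, plus strand): taaacgtggttACCTACCcaagagctcacc
CYP83A1 (chr4:7992482-7992511, minus strand): gagggatgttgGGTAGGTgaaggtgtttat
SOT17 (chr1:6398502-6398531, plus strand): caccagtcaccACCAACCtacttatctatt
SOT16 (chr1:27865914-27865943, minus strand): aacgtagccaaACCAACCaagcctctctct
UGT74B1 (chr1:8527150-8527179, minus strand): aacaacattgaGGTTGGTgccaccaacgca

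Members with and without the motif were among those that changed. CYP79F2 has it, fell in se-1 and overlapped Col-0 in cyp71-3, whereas its tandem copy CYP79F1 has none in this window and differed in both mutants. FMO GS-OX2, FMO GS-OX3, GSTU20 and IMD1 have none. IIL1 and CYP83A1 carry both a G-box and an AC element, and their 300 bases are shown with both in capitals; these genes rose in cyp71-3 by 0.19 (IIL1) and 0.15 (CYP83A1), and neither difference in se-1 passed.
IIL1 (chr4:7807985-7808284, minus strand): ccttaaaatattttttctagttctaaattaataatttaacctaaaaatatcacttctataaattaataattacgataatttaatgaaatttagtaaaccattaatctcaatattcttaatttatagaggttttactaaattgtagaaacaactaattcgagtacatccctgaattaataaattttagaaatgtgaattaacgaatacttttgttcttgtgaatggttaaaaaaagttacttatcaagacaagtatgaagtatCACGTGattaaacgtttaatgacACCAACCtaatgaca
CYP83A1 (chr4:7992430-7992729, minus strand): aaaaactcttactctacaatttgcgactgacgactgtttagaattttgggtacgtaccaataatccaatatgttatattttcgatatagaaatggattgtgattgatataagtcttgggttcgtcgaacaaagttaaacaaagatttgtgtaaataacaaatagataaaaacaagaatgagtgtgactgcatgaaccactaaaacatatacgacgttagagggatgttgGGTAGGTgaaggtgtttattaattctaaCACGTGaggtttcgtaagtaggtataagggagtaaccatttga

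Outside the 37 synthesis genes, a list of 41 other pathway genes was followed in the same fit. Of these 40 were in the files, AOP2 was not analysed here, and 37 were tested. In cyp71-3 9 rose and 18 fell (73.0% called, against 63.3% of all tested genes), with a median difference of -0.09. In se-1 13 rose and 13 fell (70.3% called, against 50.2% of all tested genes), with a median of 0.03. AOP3, a side-chain dioxygenase, was listed at 0 in every library but 1, where it was at 0.03 FPKM.

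The regulators outside the subgroup of MYB factors moved in both directions, with 1 higher and 5 lower of 7 in cyp71-3 and 2 higher and 2 lower of 7 in se-1. These are 85.7% and 57.1% called, against 63.3% and 50.2% of all tested genes. SDI1 (AT5G48850), a repressor of aliphatic synthesis that is induced by sulfur deficiency, stood at 34.80, 34.92 and 36.03 FPKM in cyp71-3, 63.89, 58.73 and 62.23 FPKM in se-1, and 14.00, 13.43 and 14.36 FPKM in Col-0. The 3 genotypes did not overlap. It rose by 1.28 ± 0.05 in cyp71-3 (adjusted p = 1.32e-09, limma) and by 2.07 ± 0.05 in se-1 (adjusted p = 1.44e-10, limma). AT1G04770, named SDI2 in the pathway list and annotated with tetratricopeptide repeats, averaged 25.3 ± 1.27 FPKM in cyp71-3, 92.0 ± 4.71 FPKM in se-1 and 78.6 ± 1.71 FPKM in Col-0 (SD, n = 3 each). It fell by 1.60 in cyp71-3, where SDI1 rose, and it rose by 0.22 in se-1, as SDI1 did. MYC4 (AT4G17880), a helix-loop-helix factor that acts with the MYB regulators, averaged 13.2 ± 0.23 FPKM in cyp71-3, 16.5 ± 2.22 FPKM in se-1 and 24.8 ± 0.29 FPKM in Col-0 (SD, n = 3 each) and fell in both mutants, by 0.86 in cyp71-3 and 0.56 in se-1.

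Of the other synthesis genes, 3 rose and 5 fell among 13 tested in cyp71-3, and 5 rose and 6 fell in se-1. These are 61.5% and 84.6% called, against 63.3% and 50.2% of all tested genes. The largest differences were in indole modification. IGMT1 (AT1G21100), a methyltransferase of hydroxylated indole glucosinolates, stood at 1.29, 1.77 and 1.84 FPKM in cyp71-3, 1.34, 1.98 and 2.05 FPKM in se-1, and 15.26, 14.81 and 14.67 FPKM in Col-0. It fell by 2.60 ± 0.12 in cyp71-3 (adjusted p = 8.88e-09, limma) and by 2.52 ± 0.12 in se-1 (adjusted p = 2.52e-08, limma). IGMT2 (AT1G21120), whose coding sequence is 92.5% identical to that of IGMT1, averaged 2.46 ± 0.64 FPKM in cyp71-3, 0.683 ± 0.10 FPKM in se-1 and 2.58 ± 0.89 FPKM in Col-0 (SD, n = 3 each) and fell by 1.06 in se-1, and how fragments were divided between the pair is uncertain. CYP81F4 (AT4G37410), which opens the route to 1-methoxy indole glucosinolates, stood at 29.18, 28.68 and 26.54 FPKM in cyp71-3, 123.09, 125.44 and 123.94 FPKM in se-1, and 106.95, 107.61 and 107.22 FPKM in Col-0. It fell by 1.89 ± 0.04 in cyp71-3 (adjusted p = 2.59e-11, limma) and rose by 0.21 ± 0.04 in se-1 (adjusted p = 0.000959, limma).

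**Figure D4:**
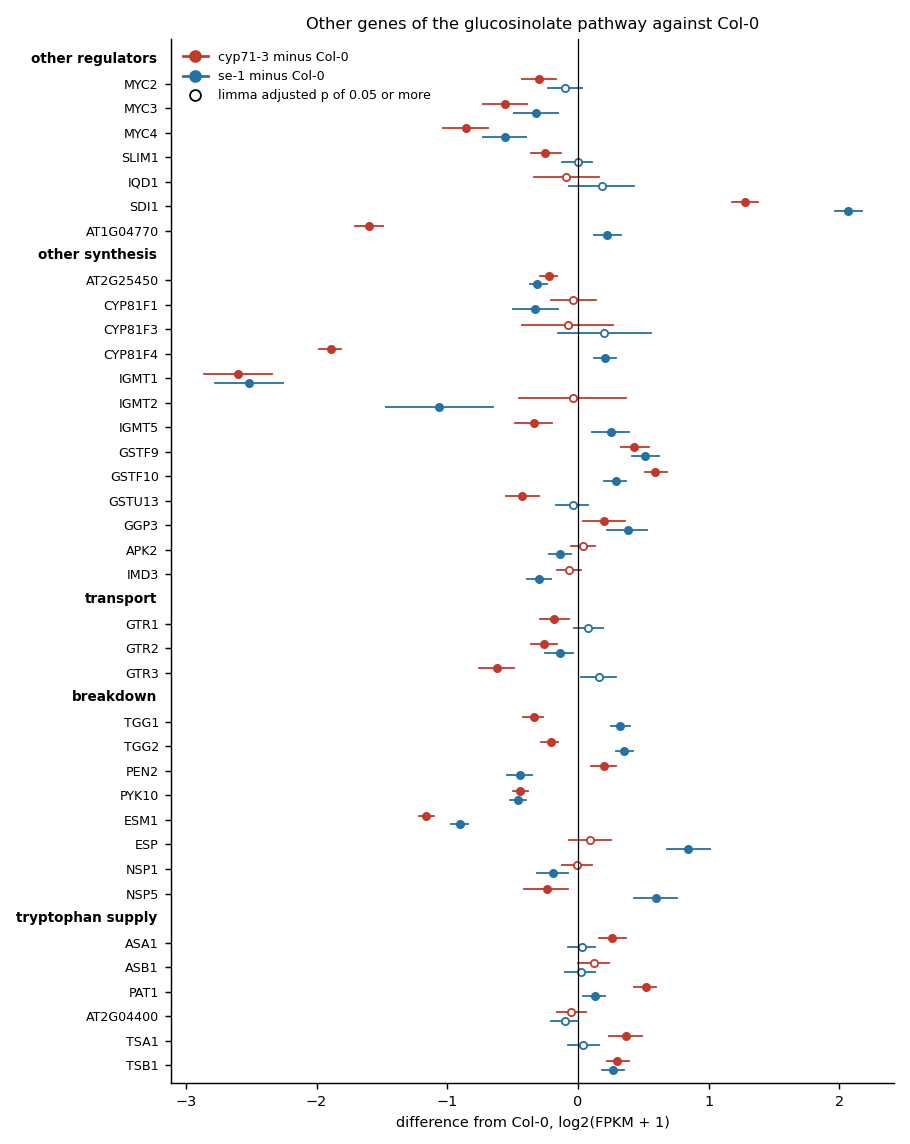
Difference from Col-0 in log2(FPKM + 1) for the 37 tested genes of the wider pathway, grouped by role, with cyp71-3 above se-1 in each row; points are limma estimates, lines their 95% confidence intervals, and open points did not pass the test. IGMT1 lies far left in both mutants, CYP81F4 and AT1G04770 far left in cyp71-3 and right of 0 in se-1, and SDI1 far right in both.

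The glucosinolate transporters fell in cyp71-3, 3 of 3, and 1 of 3 fell in se-1. Over all tested genes 63.3% were called in cyp71-3 (32.7% lower) and 50.2% in se-1 (25.1% lower). GTR3 (AT1G18880) fell by 0.62 and GTR2 (AT5G62680) by 0.26 in cyp71-3, and GTR2 fell by 0.14 in se-1. Of the 8 tested breakdown genes 1 rose and 5 fell in cyp71-3, and 4 rose and 4 fell in se-1. ESM1 (AT3G14210), which lowers nitrile formation from glucosinolates, averaged 164 ± 2.42 FPKM in cyp71-3, 196 ± 2.60 FPKM in se-1 and 368 ± 4.37 FPKM in Col-0 (SD, n = 3 each) and fell by 1.16 in cyp71-3 and by 0.90 in se-1. ESP (AT1G54040), which promotes nitriles, rose by 0.84 in se-1, and its difference of 0.09 in cyp71-3 did not pass. PYK10 (AT3G09260), a glucosidase of roots and hypocotyls, fell by 0.44 in cyp71-3 and by 0.46 in se-1.

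The tryptophan synthesis genes, which feed the indole branch, were higher where they passed. Of 6 tryptophan synthesis genes 4 rose and none fell in cyp71-3, and 2 rose and none fell in se-1. These are 66.7% and 33.3% called, against 63.3% and 50.2% of all tested genes. PAT1 (AT5G17990), a phosphoribosyltransferase of the pathway, averaged 42.8 ± 0.44 FPKM in cyp71-3, 32.4 ± 0.95 FPKM in se-1 and 29.6 ± 0.29 FPKM in Col-0 (SD, n = 3 each) and rose by 0.52 in cyp71-3 and by 0.13 in se-1. TSA1 (AT3G54640), the alpha subunit of tryptophan synthase, rose by 0.37 in cyp71-3, and its difference of 0.04 in se-1 did not pass. TSB1 (AT5G54810), a beta subunit, rose by 0.30 in cyp71-3 and by 0.27 in se-1.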

How the data were processed

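The authors deposited FPKM per gene, 1 file per library, for 9 mRNA-seq libraries of 2-week-old seedlings. The build was TAIR10 and the tools were STAR 2.7.2b, Trim Galore 0.6.7, Cuffdiff and Cuffnorm, per the submitters' processing notes. Per the labels' protocols, mRNA was captured on beads, fragmented and amplified. The sources used here do not give strandedness, annotation or how libraries were scaled. FPKM is relative to the library total, so a few abundant genes shift all others. No count model was run.

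Genes with a mean of at least 1 FPKM were tested on log2(FPKM + 1), a pseudocount of 1, with limma 3.58.1 in R 4.3.3, in 1 linear model of 3 genotypes with an intensity trend and 6 residual degrees of freedom, and called at a Benjamini-Hochberg adjusted p under 0.05. The procedure was tested on simulated data. Members and lists were chosen with earlier results of these data known. Every library is given for the MYB, CYP79 and CYP83 genes and for members called at a difference of at least 0.5 in a comparison, and the 2 largest called differences per role for other pathway genes. Symbols and sequences came from the RefSeq TAIR10.1 genome, matched by locus for all 37 members. The sequence of 1 upstream match is not reported here. The alternatives changed the pseudocount (0.1 or 0.5), the filter (none, or a mean of at least 5 FPKM), the scaling (median centring or quantile normalization), the variance trend and the weighting of libraries, or used only the 2 genotypes compared, a replicate block or fewer libraries. Summaries used Python 3.11.15, pandas 2.3.3, numpy 2.4.6, Biopython 1.88 and matplotlib 3.10.9.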

Additional observations from a re-analysis of the deposited data

How the results depend on the processing

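The count of called synthesis genes stayed within 1.5 times its value in all 20 alternatives, at 21 to 26 in cyp71-3 against Col-0 (24 as reported), 24 to 28 in se-1 against Col-0 (26) and 29 to 32 in cyp71-3 against se-1 (31). Leaving out each library in turn gave 21 to 25, 25 to 28 and 30 to 31. Of 717 member values per comparison, 688 kept their side of the threshold and, where called, their direction in cyp71-3 against Col-0 (18 lost the call, 10 gained one and 1 gained one with the other sign), 707 in se-1 against Col-0 (4 lost and 6 gained the call) and 707 in cyp71-3 against se-1 (7, 2 and 1). No called difference reversed. The 2 that gained a call with the other sign did so under quantile normalization, from -0.01 in both cases: BCAT3 was 0.10 in cyp71-3 against Col-0 (adjusted p = 0.0111, limma; 0.0111 to 0.978 over its alternatives) and BCAT4 was 0.13 in cyp71-3 against se-1 (adjusted p = 0.00385, limma; 0.00385 to 0.992), and the cause was not tested. Without the filter on low values MYB122 was called higher in cyp71-3. Libraries that share a replicate number did not deviate together (r of -0.137 to 0.043), and a replicate block gave 24, 26 and 31 calls, changing no member's call. Leaving out the library of each genotype richest in chloroplast transcripts, an alternative chosen after seeing the data, gave 22, 28 and 30. The depth of the libraries is unknown, so the counting error of scarce members, MYB76, MYB51, MYB122 and CYP81F2, cannot be given. With 3 libraries a genotype, differences of about 0.1 rest on small spreads. 6 members overlap another annotated gene, 5 of them on the opposite strand.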
